A study of Mus musculus with 3 samples.

Results

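The genes described here are those of cytokines, chemokines, their receptors and a few of their intracellular regulators, as represented on Affymetrix U74Av2 arrays of mouse retina. Members were taken by the start of the gene symbol: Il followed by a digit, Ccl, Ccr followed by a digit, Cxcl, Cxcr, Cx3cl, Xcl, Tnf, Csf, Socs, Lif, Osm and Ltb, together with Fas, Fasl, Mif and Ackr1, and without Csf1r. This gave 129 of the 8252 genes named by a single symbol on the array, with 158 of its 12488 probe sets. The letters also took in Ltbp1, Ltbp2, Ltbp3 and Ltbp4, which bind latent TGF-beta, and the leukotriene receptor Ltb4r1, and these are kept apart below. Of the 158 probe sets, 3 carry control identifiers and 155 do not. The 3 arrays were hybridised with total RNA of neural retinas from Rp1-/- mice, a knockout line on a mixed 129/SvEv and C57BL/6 background, at postnatal day 10. Each array held RNA pooled from 3 to 4 mice, with collection at 1 to 2 pm, and the pools are numbered 1 to 3 in accession order. All 3 belong to 1 group and share the deletion, and no array of another genotype was analysed here, so the comparisons are between pools of mutant retinas and, for the members, with the rest of the array. Every description gives the knockout genotype, while array titles name Rp1 for pools 2 and 3 and not for pool 1. Rp1 itself is not analysed here, so the arrays do not check the genotype. The labels do not say whether pools came from separate litters, so the spread between pools may include technical error.

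Interleukins, chemokines and tumour necrosis factor ligands are secreted or membrane-bound proteins that act at short range through receptors on neighbouring cells. Receptors of the gp130 family (Il6st) and many interleukin receptors signal through JAK kinases and STAT factors, and Socs proteins switch that signal off, while receptors of the TNF and Il1 families act mainly through NF-kappaB. In the retina, Lif and Cntf acting on gp130 are known to protect photoreceptors, and Cx3cl1 made by neurons binds Cx3cr1 on microglia. Many of the other members are best known from leukocytes.

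Most members were not above background in all of these retinal pools, while several receptors, Socs genes and ligands described below were. Signals are in scaled intensity units, and a signal was counted as above background when it passed a floor set on each array from bacterial and yeast control probe sets (100.5, 124.8 and 120.4 in pools 1, 2 and 3). Of the 155 member probe sets, 40 (25.8%) lay above the floor on all 3 arrays, against 57.9% of the 12422 probe sets without control identifiers. A further 25 were above it on 2 arrays and 22 on 1 array, beside 18.7% of all probe sets on 1 or 2, and 68 (43.9%) were above it on no array, against 23.3% of all probe sets. By gene, 35 of 129 had a probe set above the floor on all arrays, 41 had their best one above it on 1 or 2 arrays, and 53 were above it nowhere. Of all 8251 named genes, 5482 had a probe set above the floor on all arrays and 1342 were above it nowhere. The median of the mean signals was 88.8 over the 155 members and 234.4 over all 12422. The counts follow the floor: 75 members passed on all arrays with the floor at the median control (48.4%, against 71.5% of all probe sets) and 20 with the floor at the highest control (12.9%, against 47.0%). A signal under the floor is not well above background and says nothing firm of the transcript, and fewer expressing cells cannot be told apart from less RNA per cell.

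**Figure D1:**
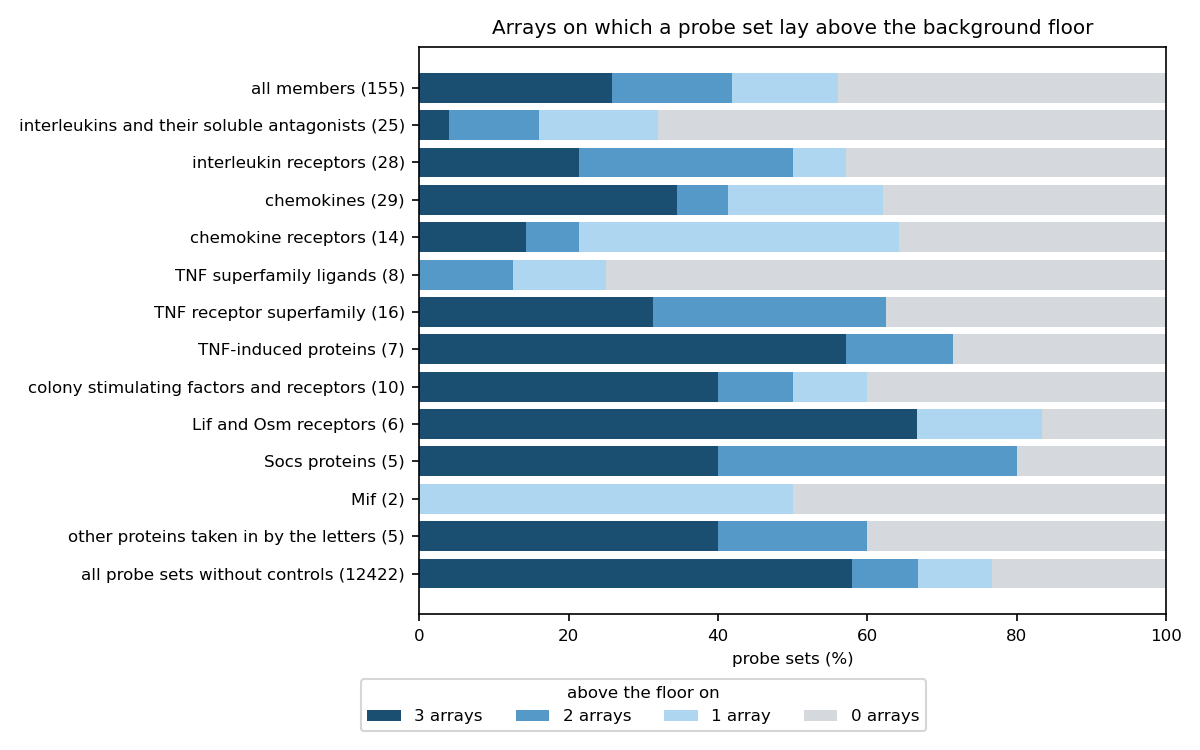
Share of probe sets (horizontal axis, %) above the background floor on 3, 2, 1 or 0 arrays, for all members, each functional group of members, and all probe sets without controls, with the number of probe sets in brackets. Of the members 25.8% were above the floor on all arrays, against 57.9% of all probe sets, and none of the 8 probe sets of TNF superfamily ligands was.

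Photoreceptor and most Mueller glia markers matched the labelled tissue. Of 7 Mueller glia markers with a probe set, 6 were above the floor on all arrays and Vim on none. All 7 photoreceptor markers with a probe set were above the floor on all arrays. Median signals were 233.8, 233.3 and 232.9. The deposited values already had near-equal trimmed means (500.26, 500.25 and 500.26), so like medians do not show that the RNA was alike. Of 12 microglia and macrophage markers, 7 were above the floor on all arrays and Ptprc, Aif1, Itgam and Fcer1g on none, and their summed signals were 3105.4, 2974.8 and 3176.0 in pools 1, 2 and 3. Of 5 T cell markers with a probe set, Cd3d, Cd3e, Cd3g and Cd8a were above the floor on no array and Cd4 on all. Of 6 lens markers 4 passed the test of variability described below (limma), with summed signals of 43245.7, 10394.8 and 102138.1. Red blood cell markers had 20541.0, 12671.7 and 10545.7, and pigment epithelium markers had 1110.2, 1164.3 and 2089.9. The part of these tissues in the members' signals was not tested.

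Promoter sequences are shown for 5 members picked as examples of the 2 signalling routes and of both outcomes on the arrays. These are Socs3, a target and inhibitor of STAT signalling, Cxcl1 and Cxcl10, chemokines induced in inflammation, Tnfaip3, an inhibitor induced by NF-kappaB, and the neuronal chemokine Cx3cl1. Each line gives the 250 bases before the start of the gene in RefSeq (build GRCm38.p6), 5′ to 3′ on the gene's strand, with matches to the STAT motif TTCNNNGAA or to the NF-kappaB consensus in capitals.
Socs3 (chr11:117969367-117969616, minus strand): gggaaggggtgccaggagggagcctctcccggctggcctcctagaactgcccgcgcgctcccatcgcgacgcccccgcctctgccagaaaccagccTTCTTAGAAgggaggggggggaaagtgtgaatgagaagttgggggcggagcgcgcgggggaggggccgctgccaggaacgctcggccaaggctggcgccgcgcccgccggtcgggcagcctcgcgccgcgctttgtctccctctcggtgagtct
Cxcl1 (chr5:90890995-90891244, plus strand): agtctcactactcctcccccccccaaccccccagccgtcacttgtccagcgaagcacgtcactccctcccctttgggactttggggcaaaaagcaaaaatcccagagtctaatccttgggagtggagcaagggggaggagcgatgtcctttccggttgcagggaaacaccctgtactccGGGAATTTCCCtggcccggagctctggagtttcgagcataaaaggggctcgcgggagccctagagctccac
Cxcl10 (chr5:92348890-92349139, minus strand): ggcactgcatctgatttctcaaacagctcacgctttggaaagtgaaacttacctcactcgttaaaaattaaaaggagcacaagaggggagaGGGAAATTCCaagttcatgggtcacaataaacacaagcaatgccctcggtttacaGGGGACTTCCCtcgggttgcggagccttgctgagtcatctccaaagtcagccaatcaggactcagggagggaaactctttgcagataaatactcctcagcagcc
Tnfaip3 (chr10:19015411-19015660, minus strand): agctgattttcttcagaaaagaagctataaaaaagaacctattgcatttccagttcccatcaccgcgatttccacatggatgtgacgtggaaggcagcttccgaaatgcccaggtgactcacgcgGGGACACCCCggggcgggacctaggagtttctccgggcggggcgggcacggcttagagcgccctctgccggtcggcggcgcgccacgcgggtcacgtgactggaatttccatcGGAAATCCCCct
Cx3cl1 (chr8:94771930-94772179, plus strand): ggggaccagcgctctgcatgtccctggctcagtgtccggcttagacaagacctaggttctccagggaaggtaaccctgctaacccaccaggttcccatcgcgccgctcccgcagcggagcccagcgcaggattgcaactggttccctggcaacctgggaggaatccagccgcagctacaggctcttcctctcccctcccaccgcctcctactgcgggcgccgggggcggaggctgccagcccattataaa

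The search covered both strands, and overlapping matches form a single stretch of capitals. Socs3 had 1 STAT match, Cxcl1 had 1 stretch of NF-kappaB matches, Cxcl10 and Tnfaip3 had 2 each, and neither motif was found in these letters of Cx3cl1. Tnfaip3 has 2 promoters in the table. The one shown was picked because it had more matches, and the one not shown held neither motif. Of the 129 member genes, 104 matched the promoter table by symbol, with 125 promoters, of which 18 (14.4%) held the STAT motif and 20 (16%) the NF-kappaB consensus. Among all 32851 promoters in the table the shares were 7.02% and 7.25%. Within the members, the STAT motif was in 5 of 33 promoters (15.2%) of genes above the floor on all arrays and in 6 of 54 (11.1%) of genes above it nowhere. The NF-kappaB consensus was in 6 (18.2%) and 9 (16.7%) of these promoters. A match describes the letters and is not a binding site.

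Among the interleukins and their soluble antagonists, 1 of 22 genes was above the floor in all pools. This was Il9, a T cell growth factor, with 278, 237 and 182.3 in pools 1, 2 and 3, all above the floor and within a 1.52-fold range. Il18bp, the soluble antagonist of Il18, had 255.3 and 177.6 in pools 1 and 2 and lay under the floor in pool 3 at 50.8. The inflammatory cytokines Il1a, Il1b and Il6 were above the floor on no array. Il1b, the main secreted product of the inflammasome, had 69.5, 23.8 and 10.1, and Il6, the founding ligand of the gp130 family, had 4.7, 31.9 and 3.5. The same held for Il2, Il5, Il7, Il11, Il12a, Il13, Il15, Il17a, Il17d, Il1f5 and the receptor antagonist Il1rn, so that 14 genes of this group were above the floor nowhere. Il3, Il4, Il10, Il12b, Il16 and Il18 passed it in 1 or 2 pools, and no signal of theirs reached 200. Of the 3 probe sets with control identifiers, that of Il10 had 151.1, 61.4 and 161.8, above the floor in pools 1 and 3, while those of Il4 (12.8, 24.3 and 15) and Fas (87.5, 57.8 and 92.2) were under it in every pool.

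Of 23 interleukin receptor genes, 5 had a probe set above the floor on all arrays: Il6st, Il27ra, Il10rb, Il4ra and Il1r2. Il6st, the shared signalling subunit gp130, was above the floor by both of its probe sets, with 399.9, 347 and 336.1 by one and 241, 195.4 and 213.8 by the other. Both were highest in pool 1, and neither ranged beyond 1.23-fold. Il27ra, which pairs with gp130 in the Il27 receptor, had 525.3, 692.8 and 646.9, lowest in pool 1. Il10rb, a subunit shared by receptors of the Il10 family, had 157.9, 197.9 and 279.9. Il4ra had 231.4, 148.1 and 150.7 by one probe set, and 171.6, 209 and 58.6 by the other, which was under the floor in pool 3. The decoy receptor Il1r2 had 151.6, 139.4 and 182.6.

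The interleukin receptor genes Il6ra and Il17ra ranged over 2-fold. Il6ra, the ligand-binding subunit that joins gp130, had 274.2, 127.7 and 40.1 in pools 1, 2 and 3, under the floor in pool 3 and with a range of at least 2.28-fold (limma, adjusted p = 0.99). Il17ra, the receptor for Il17a, had 273.2, 104.3 and 228, under the floor in pool 2, and its other probe set had 189.5, 121.5 and 132.6 with the same pool lowest. Neither passed the test of variability. Il3ra, the binding subunit for Il3, had 221.4, 150.3 and 101.4, under the floor in pool 3, and Il18rap, the accessory subunit for Il18, had 39.7, 192.1 and 137.8, under it in pool 1. Il12rb2 and Il2rb passed the floor in 2 pools and Il1rap and Il7r in 1 pool. Il10ra, Il12rb1, Il13ra1, Il13ra2, Il15ra, Il18r1, Il1r1, Il2ra, Il5ra and Il9r were above the floor nowhere.

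Lifr, Socs2 and Socs5 each had a probe set above the floor in all pools, while Osmr, Socs1 and Socs3 passed it in 1 or 2 pools. Lifr, the receptor for Lif that signals with gp130, had signals of 976.7, 1092 and 907.3 in pools 1, 2 and 3 by the set 103697_at, with a mean of 992.0 ± 93.3 (SD, n = 3 pools). These 3 values lay within 1.2-fold of each other. Its other probe sets gave 188, 150.9 and 246.5 (104657_at), 236.3, 198.3 and 231.6 (104658_at) and 295.7, 215.5 and 126.2 (104659_g_at). Pool 2 was highest by 103697_at, pool 3 by 104657_at, and pool 1 by the others of these. The set 97006_s_at was under the floor in all pools at 85.1, 40.8 and 57.6. Osmr, the receptor for oncostatin M, had 115.5, 89.9 and 55.9 and passed the floor in pool 1 alone. The ligands Lif and Osm are not analysed here.

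Socs5 and Socs2 were above the floor in every pool. Socs5, an inhibitor of Il4 and EGF receptor signalling, had 1266.8, 774.2 and 790.9, highest in pool 1 by 1.64-fold. Socs2, the inhibitor best known for restraining growth hormone, had 666.4, 679.1 and 416.6, lowest in pool 3. Socs1, an inhibitor of interferon signalling, had 284.5, 144.3 and 118.4, just under the floor in pool 3 and with a range of at least 2.36-fold (limma, adjusted p = 0.99). Socs3, the inhibitor of gp130 itself, had 95.5, 144.1 and 132.1 by a probe set of the f class, whose probes can bind related transcripts, and 24.8, 71.7 and 17.2 by the other. The second of these was under the floor in all pools.

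Of 24 chemokine genes, 10 had a probe set above the floor on all arrays and 9 were above it nowhere. Cx3cl1, the neuronal ligand of microglial Cx3cr1, had signals of 777.9, 674.5 and 689.8 in pools 1, 2 and 3 by the set 98008_at (714.1 ± 55.8, SD, n = 3 pools). Cx3cr1, its receptor, was above the floor as well at 402.7, 317.7 and 456.4. A second Cx3cl1 probe set, 161752_r_at, whose probes were chosen under relaxed rules, had 443.5, 188.2 and 51.6. It was under the floor in pool 3, and its range of at least 3.68-fold was the largest among the measured members (limma, unadjusted p = 0.025, adjusted p = 0.83). The first probe set ranged 1.15-fold over the same RNA.

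The other 9 chemokine genes above the floor in all pools included Cxcl12, Cxcl14 and several chemokines of the Ccl family. Cxcl12, which guides migrating neurons and vessels through Cxcr4, had 225.8, 351.3 and 158.3 by one probe set. Its other probe sets had 110.1, 72.9 and 82.5, above the floor in pool 1 alone, and 17.3, 12.6 and 16.8, under it throughout. Cxcl14 had 227.8, 294.4 and 409.4, lowest in pool 1. Ccl22, a ligand of Ccr4, had 269.3, 521.6 and 256.2, and Ccl4, a macrophage chemokine, had 177.7, 364.5 and 317.7. Both were highest in pool 2, by 2.04-fold and 2.05-fold over the lowest pool, and neither passed the test (limma, adjusted p = 0.99 for both). Ccl3, also a macrophage chemokine, had 260.8, 134.9 and 261.7, lowest in pool 2 where Ccl4 was highest. Ccl1 (183.6, 304.2 and 246.1), Ccl11 (151.3, 185.9 and 253.6), Ccl6 (187.8, 174.8 and 156.9) and Xcl1 (155.3, 277.8 and 156.7) completed the group, and a second Ccl1 probe set passed the floor in pool 2 alone, at 160.3.

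The other 14 chemokine genes were above the floor in 1 or 2 pools or in none. Cxcl10, an interferon-induced chemokine, had 19, 122.7 and 22.9 and was under the floor in all pools, if narrowly so in pool 2. Cxcl1, a neutrophil attractant, had 113.1, 123.9 and 69.9 by one probe set and passed the floor in pool 1 only, and the other was under it throughout. Ccl2, the main monocyte attractant, had 153.6, 11.2 and 32.5, above the floor in pool 1 alone. Ccl12 (127.8, 17.1 and 39) and Ccl8 (196.9, 38 and 63.1), of the same subfamily, were likewise above it in pool 1 alone. Ccl25 passed the floor in pools 1 and 2 at 125.2 and 167.2 and had 89.2 in pool 3. Ccl5, Ccl7, Ccl9, Ccl17, Cxcl2, Cxcl5, Cxcl9 and Cxcl13 were above it nowhere.

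Of 14 chemokine receptor genes, 2 passed the floor on all arrays, 7 on 1 or 2 arrays and 5 on none. Ackr1, an atypical receptor of red cells and venular endothelium that binds chemokines without G protein signalling, had 831.3, 657.7 and 698 (729.0 ± 90.9, SD, n = 3 pools). It was highest in pool 1, as was the summed signal of the red blood cell markers. The summed signal of the endothelial markers was lowest there, at 1616.4, 1734.8 and 2096.8 in pools 1, 2 and 3. The part of either cell type in the Ackr1 signal was not tested. Cxcr4, the receptor for Cxcl12, had 145.6, 146.6 and 151.3, just above the floor and within 1.04-fold. Ccr9 had 130.9, 161.9 and 93.7 and Ccr1l1 159.6, 85.1 and 101.9. Ccr3, Ccr4, Ccr6, Ccr7 and Ccr8, receptors of lymphocytes and granulocytes, each passed the floor in 1 pool, and Ccr1, Ccr2, Cxcr2, Cxcr3 and Cxcr5 in none.

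**Figure D2:**
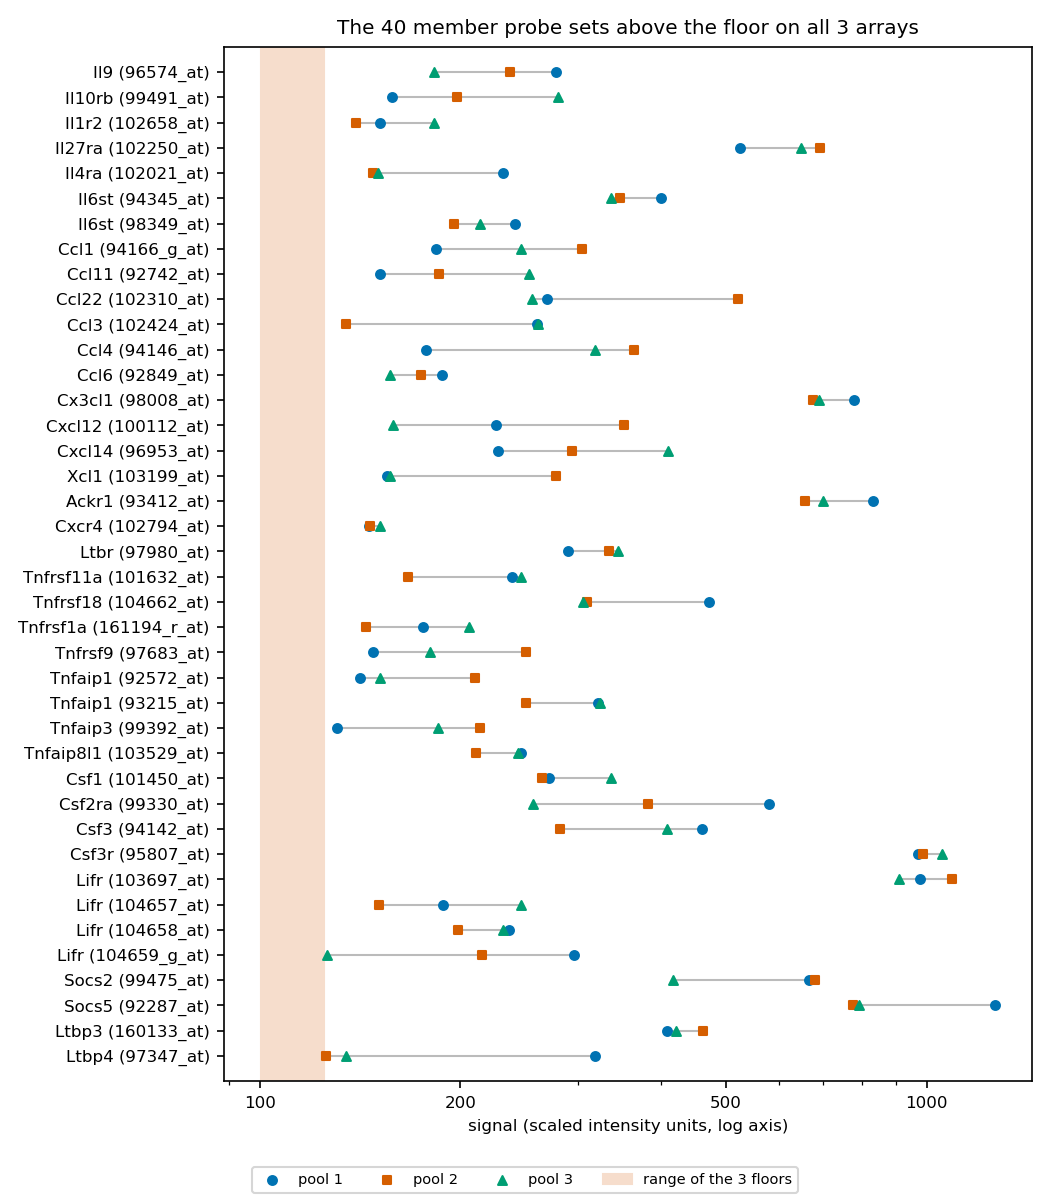
Signal in pools 1, 2 and 3 (symbols; horizontal log axis, scaled intensity units) of the 40 member probe sets above the floor on all arrays, with the range of the 3 floors shaded and a line from the lowest to the highest pool. Lifr, Csf3r, Cx3cl1 and Ackr1 each had a probe set whose 3 values lay within 1.26-fold, while 6 probe sets, of Ltbp4, Lifr (104659_g_at), Csf2ra, Cxcl12, Ccl4 and Ccl22, ranged over 2-fold.

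No TNF superfamily ligand was above the floor in all pools, whereas 5 of 13 receptor genes of the family were. Tnfsf9, a costimulatory ligand of T cells, had 264.6, 33 and 262.3 in pools 1, 2 and 3 and was under the floor in pool 2 alone. Tnf itself had 69.3, 23.2 and 70.9, and the death ligand Fasl had 16.9, 15.1 and 24.5, both under the floor in every pool. Tnfsf11 passed it in pool 1 alone, at 101.7, and Ltb, Tnfsf10, Tnfsf4 and Tnfsf8 nowhere. Among the receptors, Tnfrsf18, a costimulatory receptor of T cells, had 471.3, 309.3 and 305.2. Ltbr, the receptor for lymphotoxin beta, had 289.9, 334.5 and 344.9. Tnfrsf11a, the receptor of the osteoclast factor Tnfsf11, had 238.8, 166.9 and 246.7, and Tnfrsf9, the receptor for Tnfsf9, had 148.1, 251.1 and 180. A second Tnfrsf9 probe set was under the floor throughout at 16.7, 13.3 and 12.5.

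Both receptors for Tnf passed the floor in some or all pools. Tnfrsf1a, the main receptor for Tnf, had 175.5, 144.2 and 205.8 by a probe set of the r class and 170.5, 26.2 and 129.8 by the other, which was under the floor in pool 2. Tnfrsf1b, the receptor for Tnf on immune cells, had 133.2, 123.9 and 168.8, with pool 2 just under the floor. Fas, the receptor for Fasl, had 42, 2.9 and 14.2 and was above the floor nowhere, like Tnfrsf4, Tnfrsf11b and Tnfrsf19. Tnfrsf17, a plasma cell receptor, had 112.6, 237.1 and 42.2, highest in pool 2 and under the floor in pool 3, a range of at least 2.11-fold between pools. Tnfrsf21, a death receptor of neurons, had 186.2, 178.2 and 33.4, and Tnfrsf8, a receptor of activated lymphocytes, had 73.2, 136.7 and 151.5, each above the floor in 2 pools, and a second Tnfrsf8 probe set was under it throughout. Of the TNF-induced proteins, Tnfaip3, which restrains NF-kappaB, had 130.4, 213.6 and 185. Tnfaip1, a ubiquitin ligase adaptor, had 321.9, 250.8 and 323.7 by one probe set and 141.6, 210.5 and 151.4 by the other, with pool 2 lowest in the first and highest in the second. Tnfaip8l1 had 246.7, 210.9 and 243.7, and Tnfaip8, which passed the floor in pools 2 and 3, had 79.4, 133.1 and 135.8. Tnfaip2 and Tnfaip6 were above the floor nowhere.

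Of the colony stimulating factors, Csf1, which sustains macrophages and microglia, had 271.4, 265.4 and 336.1 in pools 1, 2 and 3, and Csf3, the granulocyte factor, had 460.8, 282.3 and 407.8. Csf2 was above the floor nowhere. Csf3r, the receptor for Csf3, had 970.5, 986.5 and 1052.2 by the set 95807_at (1003.1 ± 43.3, SD, n = 3 pools), a range of 1.08-fold. Both other Csf3r probe sets were under the floor in all pools, at 54.3, 48.8 and 25.7 and at 42.1, 50.7 and 32.4, so the signal of this gene rests on 1 of 3 probe sets. Csf2ra, the binding subunit of the Csf2 receptor, had 579.9, 381.9 and 256.8, highest in pool 1 and lowest in pool 3 by 2.26-fold (limma, adjusted p = 0.99). Csf2rb, the subunit shared with the Il3 and Il5 receptors, had 37.3, 37.3 and 322.9. It passed the floor only in pool 3, with a range of at least 3.21-fold, and did not pass the test (limma, unadjusted p = 0.028, adjusted p = 0.83). Csf2rb2, the Il3-specific copy of Csf2rb in mouse, whose transcript the probes may not tell from that of Csf2rb, had 92.1, 189.5 and 165.9, under the floor in pool 1, and a second probe set of the r class was under it throughout.

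Mif and the proteins that share only letters with the family complete the members. Mif, an inhibitor of macrophage migration, had 106.6, 16.9 and 17.9 by one probe set and 26.7, 23.4 and 27.8 by the other, above the floor in pool 1 alone by the first. Ltbp3 had 408.3, 462.7 and 421.2, and Ltbp4 had 318, 125.6 and 134.9, highest in pool 1 by 2.53-fold (limma, adjusted p = 0.99). Ltbp2 had 179.9, 161.6 and 90.1, under the floor in pool 3. Ltbp1 and Ltb4r1 were above the floor nowhere.

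No member passed a test of variability between pools. The test asked whether a probe set's variance of log2 signal between pools exceeded the trend with signal. It covered 8327 probe sets whose mean signal passed the mean floor (67% of all), called measured here, of which 64 of 155 were members. By limma 0 of the 64 passed an adjusted p of 0.05, against 18 of 8327 probe sets (0.216%), and 2 had an unadjusted p under 0.05, against 5.34% of all. The smallest adjusted p of a member was 0.83. Leaving out a pool moved the count over all probe sets to 40 without pool 1, 10 without pool 2 and 4 without pool 3, and the members' count stayed at 0 each time. With 3 arrays the test seldom detects small changes. On simulated data for all measured probe sets, it called 4 of 50 changed 2-fold in 1 pool and 38 of 50 changed 4-fold. The simulated noise was normal, with the same SD for probe sets of like signal, so detection in the real data may differ. How often the test would call such changes among the members alone, which had lower signals, was not tested.

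The median SD of log2 signal was 0.351 over the 64 measured members and 0.268 over all measured probe sets. The members were also dimmer, with a median mean signal of 195.9 against 445.6. Between the lower and upper quartile of the measured members' mean log2 signal, the median SD was 0.394 for 32 members and 0.384 for the 2053 probe sets measured there. The spread of the members was thus close to that of other probe sets of like signal.

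**Figure D3:**
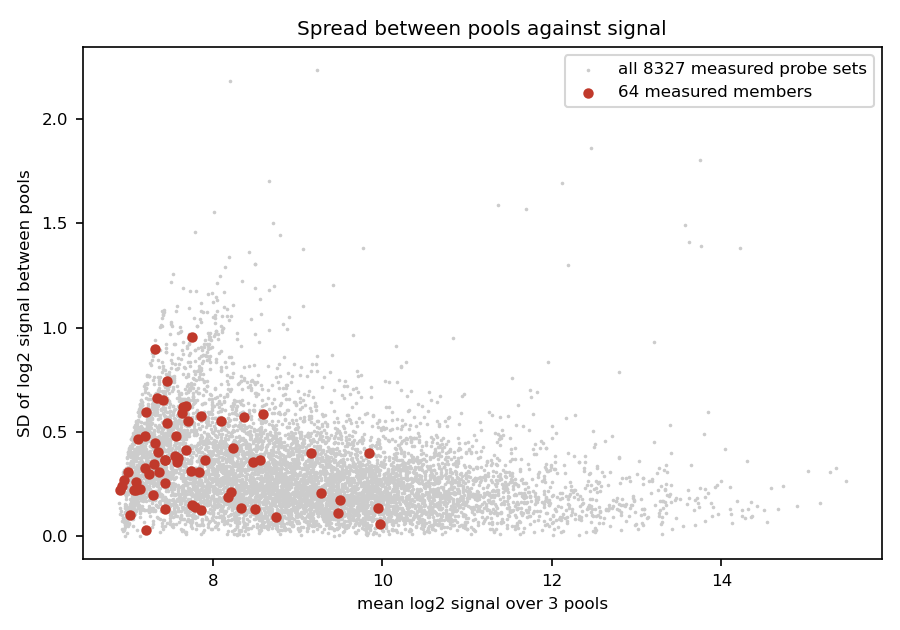
SD of log2 signal between the 3 pools (vertical axis) against mean log2 signal (horizontal axis) for all 8327 measured probe sets (grey) and the 64 measured members (red). The members had a lower median of mean log2 signal (7.58, against 8.77 for all measured probe sets). Their median SD was 0.351, and they lie inside the cloud of other probe sets.

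Of the 64 measured members, 14 ranged over 2-fold between pools, against 1098 of all 8327 measured probe sets (13.2%). These shares were not matched for signal, and the members were dimmer. The count was 4 without pool 1, 8 without pool 2 and 7 without pool 3, where each range spans 2 arrays. Pool 1 was highest for 9 of the 14 (Cx3cl1, Ltbp4, Socs1, Lifr, Il6ra, Csf2ra, Il17ra, Tnfsf9 and Il18bp), against 31.7% of all probe sets with such a range. Pool 2 was highest for Cxcl12, Tnfrsf17, Ccl4 and Ccl22, against 34.9%, and pool 3 for Csf2rb, against 33.4%. None of the 14 passed the test, and in 8 of them the lowest pool or pools were under the floor, so that their ranges are lower bounds. Those 8 entered through the pools where they were high. Among the rest, above the floor on all arrays, pool 1 was highest for Ltbp4, Lifr and Csf2ra and pool 2 for Cxcl12, Ccl4 and Ccl22. Ltbp4 shares only letters with the family.

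Pool 1 also had the most members above the floor. It had 75 of 155 (48.4%) above it, against 59 (38.1%) in pool 2 and 58 (37.4%) in pool 3, while all probe sets had 69.7%, 65.5% and 66.2%. In pool 1 alone 15 members (9.68%) were above the floor, against 5.03% of all probe sets, in pool 2 alone 2 (1.29%), against 1.96%, and in pool 3 alone 5 (3.23%), against 2.91%. The floor of pool 1 was the lowest of the 3. Summed marker signals of T cells were also highest in pool 1, at 609.8, 389.7 and 356.0 in pools 1, 2 and 3. Of these markers, Cd4 (444.5, 263.6 and 205.9) was above the floor in all pools. Markers of mast cells and granulocytes summed to 986.7, 832.6 and 722.3, with Kit (333.8, 270.6 and 284.6) alone above the floor in all pools. Among these markers Elane had 307.7, 209.2 and 52.7, under the floor in pool 3, while S100a8 and S100a9 were highest in pool 3. The red blood cell sum given above and that of Mueller glia (20420.5, 18410.0 and 19871.0) were highest in pool 1 too. Mueller glia markers were mixed: Apoe (6567.3, 4017.7 and 5037.6) and Dkk3 were highest in pool 1. Rlbp1 (2014.4, 2832 and 3172.5) and Car2 were lowest in pool 1, and the Glul and Gfap sets counted were highest in pool 2. Other sums were lowest in pool 1, at 546.0, 588.3 and 595.8 for B cells and 1616.4, 1734.8 and 2096.8 for endothelium. Of the B cell markers, however, Cd79a (201.1, 281.8 and 155.9) was lowest in pool 3. The Ighm set counted (326.4, 270.9 and 340.1) was lowest in pool 2, and Cd79b was under the floor in every pool. Photoreceptor and pigment epithelium sums were also lowest in pool 1, while those of lens and of microglia and macrophages were highest in pool 3. The part of these cells in the members' counts was not tested. With the mean floor of 115.2 on every array, a setting added after the data had been seen, 67 (43.2%), 66 (42.6%) and 59 (38.1%) members were above it in pools 1, 2 and 3, against 66.8%, 67.2% and 67.1% of all probe sets. At that floor 10 members (6.45%) were above it in pool 1 alone, against 3.08%, 7 (4.52%) in pool 2 alone, against 2.79%, and 6 (3.87%) in pool 3 alone, against 3.4%. Signals of the 64 measured members were highest in pool 1 for 27, in pool 2 for 19 and in pool 3 for 18, against 34.1%, 33.7% and 32.2% of all measured probe sets. Log2 signals of these members in pool 1 exceeded those in pool 2 by a median of 0.10 (35 of 64 higher) and those in pool 3 by a median of 0.02 (34 of 64 higher), beside -0.01 for both over all measured probe sets. Pool 2 exceeded pool 3 by a median of 0.03 (33 of 64 higher), beside 0.01.

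Probe sets of one gene often differed in whether they passed the floor. Of the 155, 45 belonged to 19 genes with several probe sets. Both probe sets of Il6st and of Tnfaip1 were above the floor on all arrays, both of Il12rb1 were above it on none, and the other 16 genes were mixed. In 5 genes (Csf3r, Cxcl12, Il1r2, Lifr and Tnfrsf9) 1 probe set was above the floor on all arrays and another on none. Of 6 genes with at least 2 measured probe sets, the highest pool was the same for Cx3cl1, Il17ra and Il6st, and it differed for Il4ra, Lifr and Tnfaip1.

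**Figure D4:**
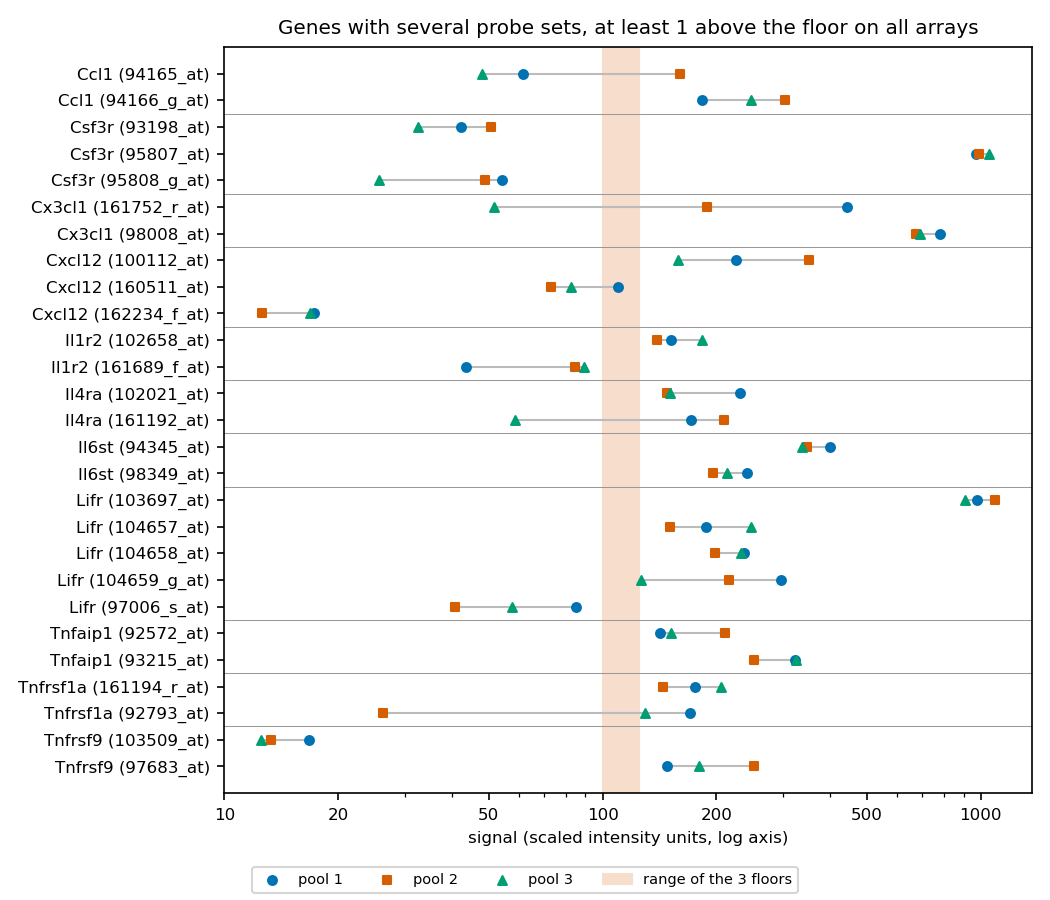
Signal in each pool (symbols; horizontal log axis, scaled intensity units) for every probe set of the member genes with several probe sets of which at least 1 was above the floor on all arrays, with grey lines between genes and the range of the 3 floors shaded. Csf3r, Cxcl12, Il1r2, Lifr and Tnfrsf9 each have a probe set under the floor in all pools beside one above it.

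Kinases, adaptors and factors downstream of these receptors were measured too. Of 49 genes listed for JAK, STAT, NF-kappaB, TNF receptor adaptors and related receptors, 39 had a probe set, 29 were measured and 25 were above the floor on all arrays, beside 5482 of all 8251 named genes. Jak1, a kinase bound to gp130, had 1014.5, 853 and 803.3 in pools 1, 2 and 3. Stat3, the main factor downstream of gp130, had 1478.3, 857.1 and 1122.3, highest in pool 1, as was its second probe set (553.5, 311.7 and 496.6). Pias3, an inhibitor of Stat3, had 2704.7, 3340.9 and 2604.5, highest in pool 2. Its other probe sets had 2351.3, 1967.1 and 2346, highest in pool 1, and 733.2, 999.8 and 1063.9, highest in pool 3. Rela, the transactivating subunit of NF-kappaB, had 1457.3, 1166.2 and 1585.4 by one probe set, and the other was under the floor throughout. Cntfr, the binding subunit of the Cntf receptor, had 109.9, 210.9 and 142.7. None of the 29 passed the test, and 4 had an unadjusted p under 0.05 (limma), against 5.34% of all measured probe sets.

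The widest ranges in that list were those of Tradd, Ifngr2, Traf5 and Tyk2. Tradd, the adaptor of Tnfrsf1a, had 701.7, 1564.2 and 294.5 by a probe set of the r class, a range of 5.31-fold that fell short of the threshold (limma, adjusted p = 0.058). Traf5, a TNF receptor adaptor, had 198.3, 495.8 and 140.1 (limma, adjusted p = 0.79), also highest in pool 2. Ifngr2, a subunit of the interferon gamma receptor, had 98.6, 357.1 and 256.8, under the floor in pool 1, and the kinase Tyk2 had 311.5, 347 and 85.7, under it in pool 3. All 4 were highest in pool 2.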

How the data were processed

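The values deposited by the authors are linear intensity values, with 1 per probe set on each array. The software that made them is not given in the sources used here. Trimmed means (2% at each end) were 500.26, 500.25 and 500.26, so no further scaling was applied. Precision is limited by the number of arrays. The 12488 probe sets include 66 controls; 1 blank row was dropped. Symbols came from the platform annotation, updated through gene identifiers; no member symbol changed. Names were taken from single symbols only.

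The floor was set per array at percentile 90 of 19 bacterial and yeast controls, and lower signals were raised to it before log2. Control identifiers stayed out of tests. Spread was tested with limma 3.58.1 (R 4.3.3) from an intercept-only fit: a robust F distribution with intensity trend fitted to the variances, its upper-tail p-values, and Benjamini-Hochberg adjustment over all 8327 measured probe sets. On simulated data for these probe sets it called 49 of 50 changed 8-fold, 50 of 50 changed 16-fold and 4 of 8127 unchanged. That simulation gave probe sets of like signal the same SD, so these rates may not hold for the real data. Python 3.11.15 did the rest. Suffixes f, r, i, s and g mark probe sets chosen under relaxed rules or sharing probes with related sets.

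Members and lists were chosen with earlier results of these data known. Named were up to 4 probe sets per functional group with the highest mean signal among those above the floor on all 3 arrays, up to 2 measured ones with the largest range, any called, any above the floor in 1 or 2 pools with a range over 3-fold, and other probe sets of those genes. Other members named with values were chosen after their values were seen. Levels of single probe sets were not compared with each other. Promoter sequences are from RefSeq (GRCm38.p6).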

Additional observations from a re-analysis of the deposited data

How the results depend on the processing

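No member passed the variability test (limma, threshold 0.05) in the deposited scaling or in any of the 13 alternatives, which were quantile normalization, 3 other floors, log2 of signal plus 50, other filters, an ordinary variance fit, no intensity trend, no suffixed probe sets and leaving out each pool. Between 1 and 5 members had an unadjusted p under 0.05 in these settings. The smallest adjusted p of a named member was 0.45. Over all probe sets, the count of 18 became 11 with log2 of signal plus 50, 52 with no filter on low values, 6 with the ordinary fit, 0 with no intensity trend and 4 to 40 with a pool left out. The members above the floor on all arrays became 75 with the floor at the median control and 20 at the highest control, and those above it on no array became 21 and 104. The members with a range over 2-fold became 46 and 3 with those floors, 6 when all arrays had to pass the floor, and 4 to 8 with a pool left out. Their median SD was 0.168 with no filter, where probe sets at the floor on all arrays enter. The cause of the other shifts was not tested. Quantile normalization gave 40 members above the floor on all arrays and 14 over 2-fold, as did the deposited scaling. Signals near the floor limit what these arrays can say of most cytokine genes.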
